A study of Mus musculus with 32 samples.

Results

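The calcium channel gamma subunit family has 8 members in the mouse, *Cacng1* to *Cacng8*, and all 8 were found among the 53715 genes counted in the amygdala and hippocampus of mice lacking *Kdm5c*, carrying 1 working copy of *Kmt2a*, or both. The 16 transcripts annotated for them were found among the 135181 transcripts counted in the same 32 libraries. The family was chosen by the measured expression of *Cacng6*, which was known to be higher in the hippocampus of mice without *Kdm5c*. The *Cacng6* values between genotypes are therefore given as a description with no test, and tests are kept for the other 7 members and for comparisons that the choice did not use.

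The study asked how the loss of a histone H3K4 demethylase, KDM5C, and the reduction of an H3K4 methyltransferase, KMT2A, act alone and together on the brain. All mice were adult F1 hybrid males (129xB6) from 129S1/SvImJ *Kmt2a*+/- fathers and C57BL/6 *Kdm5c*+/- mothers, and poly(A) RNA from the microdissected amygdala and hippocampus was sequenced in 4 mice per genotype. The groups were wild type (WT, *Kmt2a*+/+ and *Kdm5c*+/y), *Kmt2a*-HET (*Kmt2a*+/-, *Kdm5c*+/y), *Kdm5c*-KO (*Kmt2a*+/+, *Kdm5c*-/y) and the double mutant (DM, *Kmt2a*+/-, *Kdm5c*-/y). WT and *Kmt2a*-HET are called *Kdm5c*-intact here, and *Kdm5c*-KO and DM *Kdm5c*-mutant. Both alleles are constitutive and present in every cell of the body, each is a single engineered line on 1 hybrid background, and in bulk tissue fewer cells that express a gene and less RNA per cell cannot be told apart.

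The gamma subunits are small membrane proteins. The founding one is the gamma subunit of the skeletal muscle calcium channel, and *Cacng1* and *Cacng6* form the branch that associates with voltage-gated calcium channels of muscle. The other members are transmembrane AMPA receptor regulatory proteins (TARPs), which bind AMPA-type glutamate receptors, carry them to the synapse and slow their closing. The type I TARPs are *Cacng2* (stargazin), *Cacng3*, *Cacng4* and *Cacng8*, and the type II TARPs are *Cacng5* and *Cacng7*. *Cacng8* is known as the main hippocampal TARP, where its loss depletes AMPA receptors, and the loss of stargazin gives the ataxic and epileptic stargazer mouse.

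Each amygdala library held 19215503 to 26033615 gene counts and each hippocampus library 19322262 to 27798980, and the members' depth is given with their values as normalised counts (counts divided by the DESeq2 size factor of the library). Each allele deletes only some exons of its gene, and whole-gene counts include the exons that remain. The *Kdm5c* normalised count was 1426 to 1888 in 8 *Kdm5c*-intact hippocampi and 1145 to 1430 in 8 mutant ones (log2 fold change -0.30, SE 0.06, DESeq2 adjusted p = 0.000517), so that the groups met at their edges. *Kmt2a* was at 2788 to 5919 in the 8 hippocampi with both copies and 2971 to 6647 in the 8 with 1 working copy (log2 fold change 0.19, SE 0.17, DESeq2 adjusted p = 0.735), and its count therefore does not check that genotype. It was lowest in replicate 1 in all 8 groups of 4 libraries. Several libraries stood apart by their tissue markers. *Kdm5c*-KO hippocampus replicate 1 had the lowest summed count of 6 hippocampal principal neuron markers (8860, against 10883 to 32102 in the other hippocampi), the highest of 6 striatal projection neuron markers (12751, against 2023 to 3709) and the highest of 8 choroid plexus markers (101679, against 894 to 26992). WT amygdala replicate 1 had the lowest striatal sum of the WT amygdalae (10666) and the highest sum of 5 neuronal markers of all 16 amygdalae (101129, against 55787 to 81841). *Kdm5c*-KO amygdala replicate 3 had the lowest striatal sum of all 16 amygdalae (6732), and DM amygdala replicate 1 the highest choroid plexus sum (42784, against 822 to 7948 in the other 15). No list of amygdala markers was used, so the dissection of that region was not checked against its own defining genes.

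*Cacng6* (ENSMUSG00000078815.8) lies on the plus strand of chromosome 7 at chr7:3424195-3435667 (mm10, GENCODE M21), the last of a run of 3 family genes. It has 2 annotated transcripts. ENSMUST00000183200.7 (1977 bases, chr7:3424195-3435667) holds exon 3, and ENSMUST00000108647.2 (868 bases, chr7:3424662-3435163) skips it and also starts later and ends earlier. Exon 3 covers chr7:3431819-3431956 and its 138 bases make 46 codons with 0 bases left over, so the reading frame is kept when it is skipped. The exon and the 30 bases across each of the alternative junctions are shown because exon 3 is the inner exon by which the transcripts differ, taken from the GENCODE M21 transcripts. In the junctions the capitals mark the first bases of the downstream exon.
*Cacng6* exon 3: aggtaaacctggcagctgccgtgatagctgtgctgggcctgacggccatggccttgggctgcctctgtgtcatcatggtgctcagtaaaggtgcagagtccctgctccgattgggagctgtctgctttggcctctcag
Junction into exon 3: gaaccaccaagaaagAGGTAAACCTGGCAG
Junction that skips exon 3: gaaccaccaagaaagGCCTGCTGCTCTTTG

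*Cacng6* was low in every *Kdm5c*-intact hippocampus and many times higher in every *Kdm5c*-mutant one. The WT hippocampi had normalised counts of 30.4, 27.8, 47.6 and 22.1 (mean 31.96 ± 10.99, SD, n = 4). *Kmt2a*-HET hippocampi had 47.1, 37.3, 38.2 and 74.8 (mean 49.4 ± 17.5). *Kdm5c*-KO hippocampi had 136.8, 537.8, 439.2 and 392.9 (mean 376.7 ± 170.9). The lowest of these was replicate 1, the library with the most choroid plexus and striatal RNA and the least hippocampal principal neuron RNA. DM hippocampi had 602.4, 639.4, 405.6 and 493.1 (mean 535.1 ± 106.4). The 8 intact libraries (22.1 to 74.8) and the 8 mutant libraries (136.8 to 639.4) did not overlap, and this separation is the pattern for which the family was chosen. Across all genes, 2.39% passed the test in the comparison of *Kdm5c*-mutant with *Kdm5c*-intact hippocampi, 1.01% in that of *Kdm5c*-KO with WT and 0.875% in that of DM with WT, and nothing is read from *Cacng6* being among them.

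**Figure D1:**
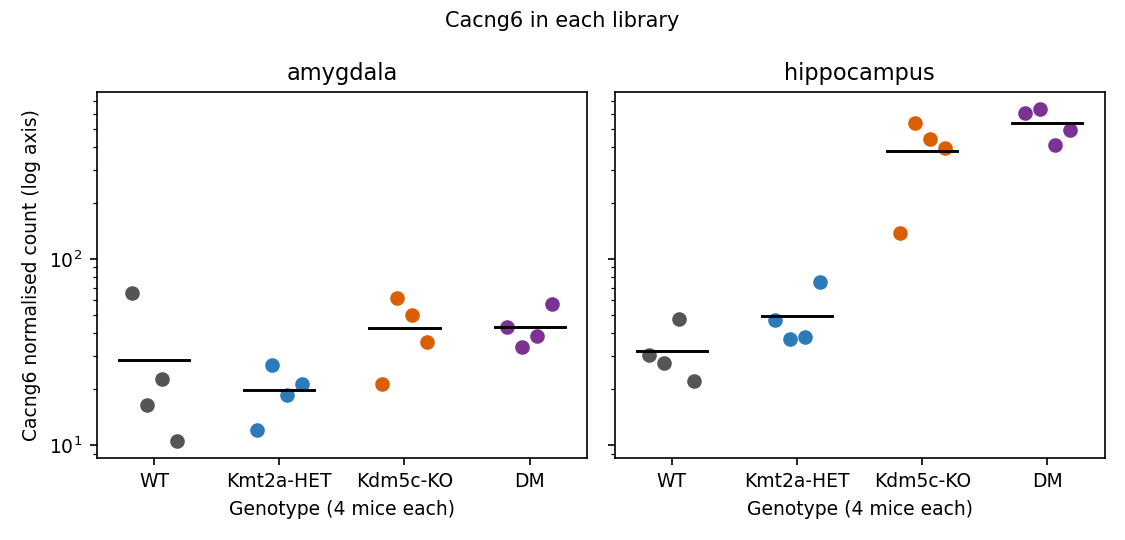
Normalised count of *Cacng6* (log axis) in each of the 32 libraries, by genotype and region; each point is 1 mouse and the horizontal bars are the means of 4. The 8 *Kdm5c*-mutant hippocampi sit at 136.8 to 639.4, above the 8 *Kdm5c*-intact hippocampi at 22.1 to 74.8, while in the amygdala the ranges of 21.4 to 61.8 and 10.5 to 65.3 overlap.

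On the log2 scale the hippocampal difference in *Cacng6* was 3.57 (SE 0.34, 11.9-fold) for *Kdm5c*-KO against WT and 4.07 (SE 0.34, 16.8-fold) for DM against WT. Over the 8 mutant and 8 intact mice it was 3.51 (SE 0.24, 95% interval 3.03 to 3.98, 11.4-fold). These values chose the family, and the SEs and interval do not allow for that choice. Leaving out 1 library at a time gave log2 values of 3.40 to 3.65, the highest without *Kdm5c*-KO replicate 1. DM and *Kdm5c*-KO hippocampi overlapped, with a log2 difference of 0.51 (SE 0.32, 95% interval -0.12 to 1.13) that fell to 0.23 without *Kdm5c*-KO replicate 1 and became -0.39 when libraries were scaled by the ERCC spike-ins (RNAs of known amount added to each sample), where the median log2 difference of all genes was -0.71. The log2 difference of *Kmt2a*-HET from WT was 0.63 (SE 0.36, 95% interval -0.07 to 1.33), and 0.36 without *Kmt2a*-HET replicate 4 to 0.88 without WT replicate 3, and the values of these groups overlapped.

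In the amygdala *Cacng6* was low in every genotype. WT amygdalae had normalised counts of 65.3, 16.5, 22.6 and 10.5 (mean 28.7 ± 24.9). *Kmt2a*-HET amygdalae had 12.1, 27.1, 18.6 and 21.3 (mean 19.8 ± 6.2). The highest of these 8 values was that of WT replicate 1, the library with the most neuronal and least striatal RNA among the WT amygdalae. *Kdm5c*-KO amygdalae had 21.4, 61.8, 50.2 and 35.9 (mean 42.3 ± 17.5). DM amygdalae had 43.3, 33.7, 38.8 and 57.1 (mean 43.22 ± 10.03). The mutant and intact groups overlapped, with a log2 difference of 0.85 (SE 0.33, 95% interval 0.19 to 1.502) over 8 and 8 mice. That difference was 0.71 to 1.25 when 1 library was left out, highest without WT replicate 1, and 0.85 without DM replicate 1. Against WT the log2 difference was 0.56 (SE 0.47) for *Kdm5c*-KO and 0.59 (SE 0.47) for DM. Without 1 library these were 0.29 to 1.37 and 0.31 to 1.39, each highest without WT replicate 1. For *Kmt2a*-HET against WT the log2 difference was -0.55 (SE 0.48), and -0.83 to 0.25 without 1 library, again highest without WT replicate 1. The log2 difference between mutant and intact mice was larger in the hippocampus than in the amygdala by 2.66 (SE 0.41), and by 2.25 to 2.83 when 1 mouse was left out, given as a description since the hippocampal values chose the gene.

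Several marker lists moved with *Kdm5c* genotype in the hippocampus, and their part in the *Cacng6* values was not tested. The summed normalised count of 8 choroid plexus markers ranged from 894 to 25222 in the intact and from 1124 to 101679 in the mutant hippocampi, and 5 of the 8 genes passed the test as higher in mutants (2.39% of all genes passed, in either direction). Without *Kdm5c*-KO replicate 1 only 1 of the 8 passed, *Kl*. Of 8 markers of skeletal muscle, the tissue from which the *Cacng1* protein is known, only *Acta1* (skeletal alpha-actin) passed that test as higher in mutants (log2 fold change 1.19, SE 0.30, DESeq2 adjusted p = 0.00806), and the summed count ranged from 125 to 1362 in the intact and 313 to 1653 in the mutant hippocampi. *Acta1* also passed in the amygdala (log2 fold change 1.41, SE 0.22, DESeq2 adjusted p = 1.18e-07). None of the markers was at 0 in all libraries.

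Set on a scale that allows genes to be compared, CPM (counts scaled by the library total) per kilobase of exon, called the level per kb, *Cacng6* changed its place in the family. In WT hippocampus its level per kb was 0.703 ± 0.243 and had rank 7 of the 8 members, above *Cacng1* alone. In *Kdm5c*-KO it was 8.32 ± 3.64 and had rank 6, above *Cacng5* in mean and overlapping both neighbours in the order. In DM it was 11.6 ± 2.16 and had rank 5, with every DM value above those of *Cacng4* (7.74 to 8.47) and *Cacng5* (2.45 to 4.16). Its share of the summed level per kb of the 8 members was 0.368% for WT hippocampus and 0.562% for *Kmt2a*-HET hippocampus, against 4.52% (*Kdm5c*-KO) and 6.09% (DM). In the amygdala the share was 0.327%, 0.248%, 0.543% and 0.552% in the same order of genotypes. *Cacng6* thus stayed a small part of the family's RNA in every group.

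Both *Cacng6* transcripts were higher in *Kdm5c*-mutant hippocampi. The transcript with exon 3 had 15.05 to 59.3 normalised counts in the intact libraries (mean 30.7 ± 14.4) and 96.7 to 459.7 in the mutant ones (mean 320.9 ± 112.6). The transcript that skips exon 3 had 4.6 to 15.5 (mean 9.9 ± 3.8) and 40.1 to 199.0 (mean 135.0 ± 47.1). Neither overlapped between the groups. The transcript with exon 3 made up 75.4% of the pooled *Cacng6* count in the intact hippocampi (54.1 to 83.1% in single libraries) and 70.3% in the mutant ones (66.2 to 74.4%). The single-library shares of the groups overlapped and the intact ones, which rest on few counts, were spread more widely. In the amygdala that share was 65.6% (34.1 to 100%) in the intact and 68.8% (49.4 to 82.5%) in the mutant mice. The shares are of counts and not per length, while the transcripts differ in length at both ends as well as by exon 3. The split is an estimate in the deposited tables, and the estimator is not given in the sources used here.

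**Figure D2:**
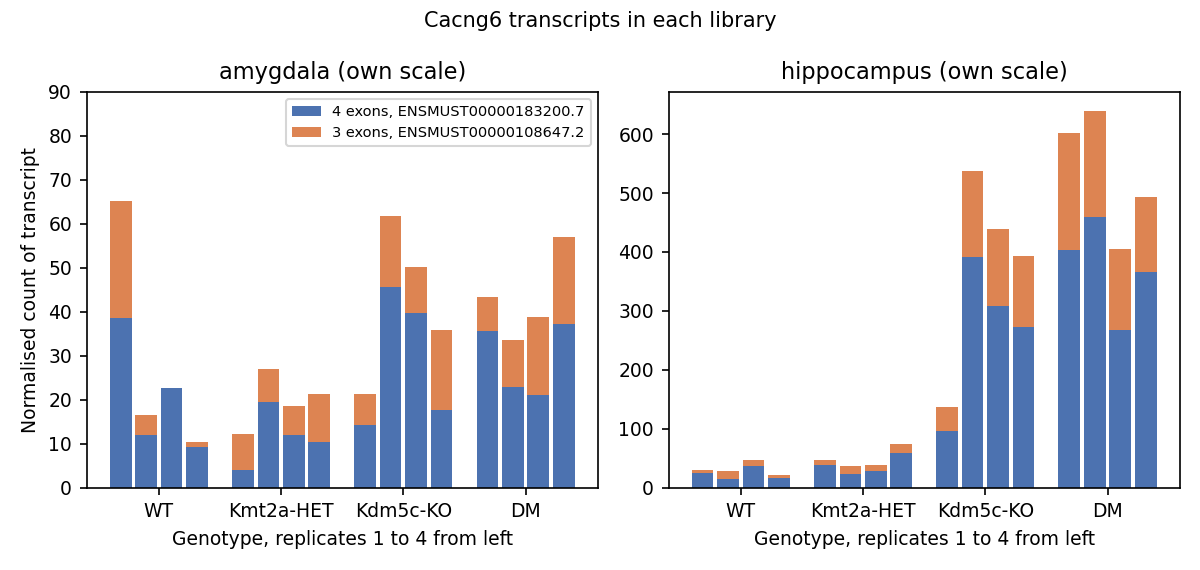
Normalised counts of the *Cacng6* transcripts with exon 3 (4 exons, lower part of each bar) and without it (3 exons, upper part) in each library, by genotype, with a separate linear scale from 0 for each region; each bar is 1 mouse. In the hippocampus both transcripts are higher in every *Kdm5c*-mutant library (at least 96.7 and 40.1) than in any intact one (at most 59.3 and 15.5).

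*Cacng7*, *Cacng8* and *Cacng6* follow each other on the plus strand of chromosome 7, at chr7:3332955-3368221, chr7:3390683-3415648 and chr7:3424195-3435667, with 22461 bases between the first pair and 8546 between *Cacng8* and *Cacng6*. The genes next to *Cacng6* did not share its difference in the hippocampus. Over 8 mutant and 8 intact mice, *Cacng8* had a log2 fold change of -0.09 (SE 0.13, DESeq2 adjusted p = 0.971) and *Cacng7* of -0.17 (SE 0.10, DESeq2 adjusted p = 0.668). *3300002P13Rik*, a long noncoding RNA gene just upstream of *Cacng6* on the other strand, had -0.30 (SE 0.14, DESeq2 adjusted p = 0.422). *Gm35037*, a long noncoding RNA gene downstream of *Cacng6* on the same strand, had 0.49 (SE 0.46, DESeq2 adjusted p = 0.903), on a mean normalised count of 11.0. *Myadm*, upstream of *Cacng7*, had 0.25 (SE 0.11, DESeq2 adjusted p = 0.393). *Cacng1*, *Cacng4* and *Cacng5* form a run on the minus strand of chromosome 11 (chr11:107703218-107716522, chr11:107732357-107794557 and chr11:107874605-107915055), *Cacng3* lies apart on chromosome 7 (chr7:122670492-122769393, plus strand) and *Cacng2* on chromosome 15 (chr15:77991748-78120028, minus strand). Of the 12 protein-coding genes within 100 kb of any of these runs, 1 passed the test in the mutant against intact hippocampi (2.39% of all genes), and 0 in any other comparison of genotypes. This was *Tarm1*, an immune cell receptor gene near *Cacng6*, with 1.1 to 9.6 normalised counts in the intact and 0 to 2.8 in the mutant hippocampi (DESeq2 adjusted p = 0.0992), which is too near the floor of 3 counts for a fold change. Antisense genes overlap *Cacng2*, *Cacng3*, *Cacng4* and *Cacng8*, and the strand setting of the counting is not given in the sources used here.

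None of the other 7 members passed the DESeq2 test (adjusted p under 0.1 over all genes) in any of the 6 comparisons of genotypes in either region, and edgeR's quasi-likelihood test called 0 of them as well. *Cacng1* had no adjusted p in 4 of the hippocampal comparisons, so that 6 members were tested there. In the hippocampus 0 of 6 passed for *Kdm5c*-KO against WT (1.01% of all genes called) and 0 for DM against WT (0.875%), with 2 at an unadjusted p under 0.05 in each, where 8.15% and 7.81% of all genes tested were. For the 8 mutant against the 8 intact hippocampi (2.39%) it was 0 of 6, with 2 at an unadjusted p under 0.05, beside 9.6% of all genes tested. For *Kmt2a*-HET against WT (0% of all genes called) and DM against *Kdm5c*-KO (0.0067%) it was 0 of 7, and for the 8 mice with 1 working *Kmt2a* copy against the other 8 (0.113%) 0 of 6, with 0 at an unadjusted p under 0.05 in each. In the amygdala 0 of 7 passed for *Kdm5c*-KO (0.751% of all genes) and DM (0.966%) against WT, with 0 at an unadjusted p under 0.05. For mutant against intact amygdalae (1.65%) 0 of 7 passed and 1 was at an unadjusted p under 0.05, where 7.46% of all genes tested were. For *Kmt2a*-HET against WT (0.00988%) it was 0 and 1, beside 3.05% of all genes tested at an unadjusted p under 0.05. For DM against *Kdm5c*-KO (0.00329%) and the 8 against 8 comparison of *Kmt2a* (0%) it was 0 and 0. The region difference of the *Kdm5c* effect passed for 0 of the 6 with an adjusted p, *Cacng1* having none (0.0871% of all genes, edgeR 0), with 0 at an unadjusted p under 0.05 and log2 values from -0.29 (*Cacng3*) to 0.20 (*Cacng5*) leaving out *Cacng1*. The median log2 fold change of the 7 in mutant against intact mice was -0.09 in the hippocampus and -0.07 in the amygdala, beside -0.01 over all genes tested in each.

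Among the type I TARPs the largest difference was that of *Cacng3* in the hippocampus. WT hippocampi had normalised counts of 1435, 1235, 1453 and 1726 (mean 1462 ± 202). *Kmt2a*-HET hippocampi had 1168, 1547, 1083 and 1206 (mean 1251 ± 204). The intact values overlapped with those of both mutants. *Kdm5c*-KO hippocampi had 1111, 1014, 888.3 and 1353 (mean 1092 ± 197). DM hippocampi had 1128, 1058, 1242 and 938.2 (mean 1091 ± 127). All but 1 of the mutant values lay below the intact median of 1335. The log2 difference was -0.31 (SE 0.11, 95% interval -0.52 to -0.10, DESeq2 adjusted p = 0.123) for mutant against intact mice. It was -0.42 (SE 0.15) for *Kdm5c*-KO and for DM against WT (DESeq2 adjusted p = 0.234 and 0.268), comparisons that share the WT mice. It passed the test for *Kdm5c*-KO without *Kdm5c*-KO replicate 4 (DESeq2 adjusted p = 0.0414), and for mutant against intact mice without WT replicate 2, *Kmt2a*-HET replicate 3, *Kdm5c*-KO replicate 4 or DM replicate 3 (DESeq2 adjusted p between 0.0242 and 0.0828).

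*Cacng2* differed less. Its hippocampal counts were 1970, 1917, 1757 and 1936 in WT and 1698, 2015, 1869 and 1898 in *Kmt2a*-HET mice. They were 1385, 1699, 1721 and 1699 in *Kdm5c*-KO mice and 1628, 1859, 1748 and 1845 in DM mice. The 8 mutant values (1385 to 1859) overlapped with the 8 intact ones (1698 to 2015), with a log2 difference of -0.15 (SE 0.06, 95% interval -0.27 to -0.03, DESeq2 adjusted p = 0.286) for mutant against intact mice and -0.12 without *Kdm5c*-KO replicate 1. The *Kdm5c*-KO values (1385 to 1721) lay below the WT ones (1757 to 1970) with no overlap, and their log2 difference was -0.22 (SE 0.09, 95% interval -0.39 to -0.05, DESeq2 adjusted p = 0.354), or -0.15 without *Kdm5c*-KO replicate 1. In the amygdala the intact values ran from 1500 to 2265 (median 2090) and the mutant ones from 1703 to 1961 (median 1811). The lowest intact value was WT replicate 1, and the log2 difference of -0.16 (SE 0.08, 95% interval -0.31 to -0.01, DESeq2 adjusted p = 0.626) passed the test without that library, as did those of *Kdm5c*-KO and DM against WT. *Cacng4* had log2 differences of 0.11 (SE 0.11, 95% interval -0.09 to 0.32) in the hippocampus, where it was 0.01 without *Kdm5c*-KO replicate 1, and of -0.07 (SE 0.10, 95% interval -0.27 to 0.13) in the amygdala. *Cacng8* had -0.09 (95% interval -0.35 to 0.17) and 0.00 (95% interval -0.17 to 0.18).

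**Figure D3:**
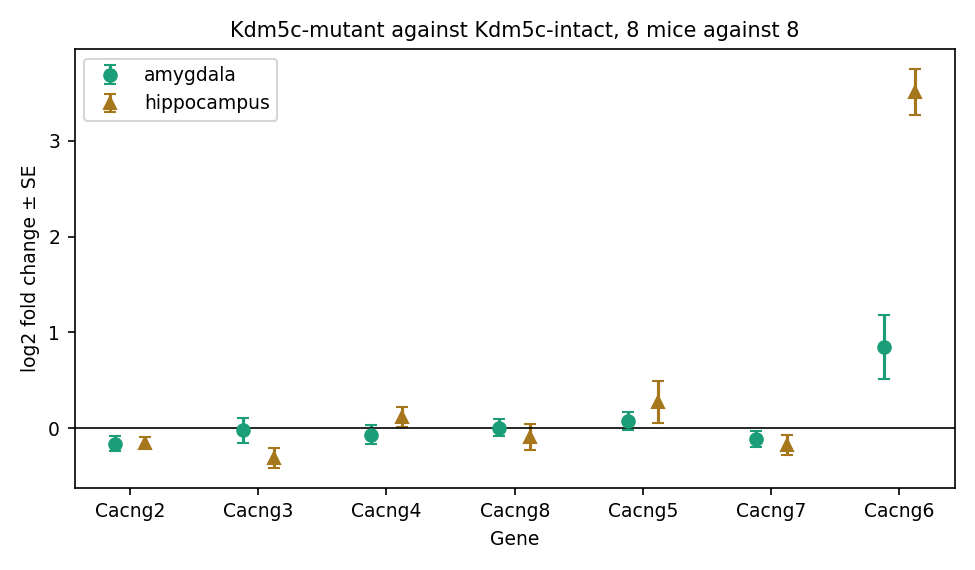
Log2 fold change of the members in 8 *Kdm5c*-mutant against 8 *Kdm5c*-intact mice, in the amygdala and hippocampus; points are DESeq2 estimates and bars their SE, and *Cacng1* is left out for its low counts. *Cacng6* in the hippocampus (3.51, the value that chose the family) stands apart, and the other members shown lie between -0.31 (*Cacng3*) and 0.27 (*Cacng5*).

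Neither type II TARP passed the test. *Cacng5*, which has the lowest level of the TARPs, had hippocampal counts of 174.3, 238.7, 284.5 and 101.0 in WT and 313.6, 233.1, 222.7 and 334.9 in *Kmt2a*-HET mice. The counts were 237.8, 448.6, 286.9 and 143.9 in *Kdm5c*-KO mice and 374.8, 302.6, 214.6 and 257.5 in DM mice. Every group overlapped every other. The log2 difference of DM from WT was 0.53 (SE 0.31, 95% interval -0.09 to 1.14, DESeq2 adjusted p = 0.750), and 0.30 without WT replicate 4 to 0.75 without WT replicate 3. That of *Kdm5c*-KO from WT was 0.49 (SE 0.32, DESeq2 adjusted p = 0.780), and 0.16 without *Kdm5c*-KO replicate 2 to 0.71 without WT replicate 3. That of *Kmt2a*-HET from the same WT mice was 0.47 (SE 0.32, DESeq2 adjusted p = 1.0), and 0.25 to 0.69 without 1 library. Over 8 mutant and 8 intact mice the log2 difference was 0.27 (SE 0.22, DESeq2 adjusted p = 0.857). *Cacng7* ran from 2791 to 4505 in the intact and 2330 to 3391 in the mutant hippocampi, a log2 difference of -0.17 (SE 0.10, 95% interval -0.38 to 0.03). In the amygdala that difference was -0.12 (SE 0.08, 95% interval -0.28 to 0.04, DESeq2 adjusted p = 0.924). *Cacng1*, the other member of the muscle branch, was at the edge of detection. Its counts before normalisation were 0 to 10 in the amygdala libraries and 0 to 5 in the hippocampal ones, with 0 counts in 2 of 16 and 6 of 16 libraries. No fold change is given for it, since a count of 0 allows up to 3 counts, or 0.108 to 0.156 CPM at these depths.

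In WT mice the levels per kb of all 6 TARPs lay above those of the muscle-type members in both regions, with *Cacng5* and *Cacng6* close in the hippocampus (lowest 1.15 and highest 1.05). In WT amygdala *Cacng7* led with 72.5 ± 8.72, followed by *Cacng8* (36.6 ± 6.89), *Cacng3* (25.9 ± 8.59), *Cacng4* (25.1 ± 4.25), *Cacng2* (15.8 ± 3.003), *Cacng5* (6.74 ± 1.63), *Cacng6* (0.619 ± 0.518) and *Cacng1* (0.139 ± 0.0465). The ranges of *Cacng8* and *Cacng3*, and those of *Cacng3* and *Cacng4*, overlapped, and all other neighbours in the order were apart. In WT hippocampus *Cacng8* led with 78.8 ± 12.5, overlapping with *Cacng7* (64.5 ± 12.3), and then came *Cacng3* (22.9 ± 3.29), *Cacng2* (14.95 ± 0.723), *Cacng4* (7.97 ± 0.490), *Cacng5* (2.26 ± 0.903), *Cacng6* and *Cacng1* (0.0544 ± 0.0717). *Cacng7* and *Cacng8* together made up most of the family's RNA, with 39.6% and 19.9% of the summed level per kb in WT amygdala and 33.5% and 41.1% in WT hippocampus. Most of the RNA came from 1 transcript per gene for *Cacng3*, *Cacng4* and *Cacng7*, where the main transcript made up at least 99.3% of the pooled count in each region. *Cacng8* was split between ENSMUST00000182222.7 and ENSMUST00000092351.5, with 72.4% and 26.9% of the amygdalar and 71.0% and 28.7% of the hippocampal count.

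**Figure D4:**
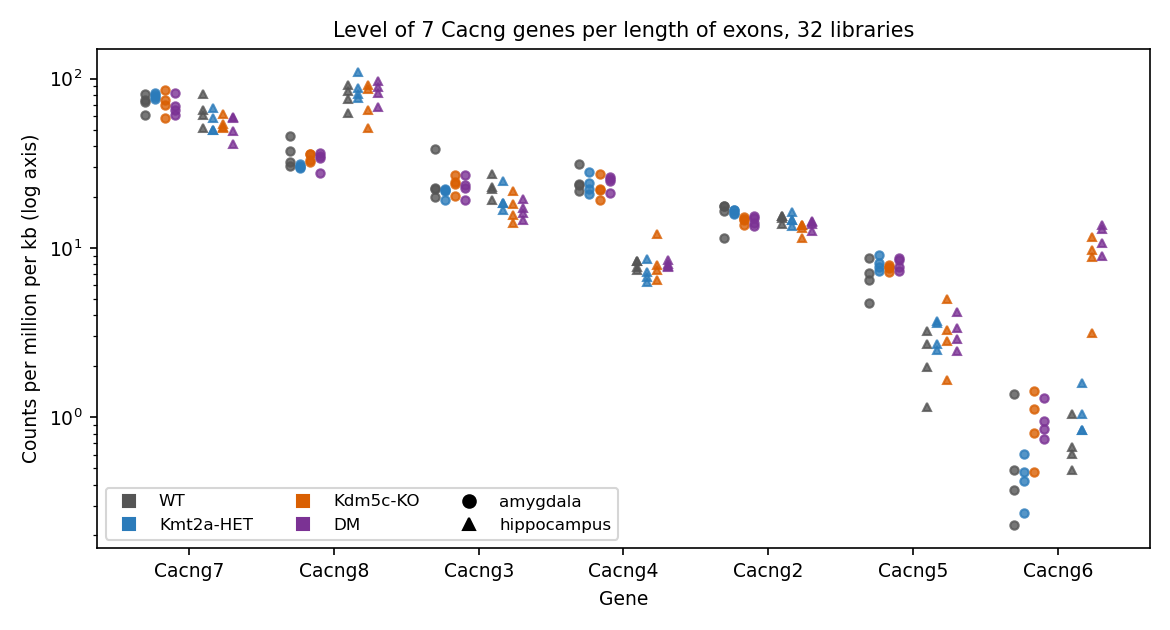
Level per kb (CPM per kilobase of exon, log axis) of 7 members in the amygdala (circles) and hippocampus (triangles); points are libraries coloured by genotype, and *Cacng1* is left out for its counts of 0. *Cacng8* is higher and *Cacng4* lower in the hippocampus with no overlap, *Cacng5* is lower with overlap at the edges, and *Cacng6* is highest in the *Kdm5c*-mutant hippocampi.

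Of the members besides *Cacng6*, 6 of 7 passed the test between hippocampus and amygdala over the 32 libraries, where 45.2% of all genes did. The number was 5 to 6 when 1 mouse was left out and 3 in the 8 WT libraries alone. The tables of the regions were deposited separately, so region and table cannot be told apart. *Cacng8* was higher in the hippocampus. Its level per kb was 27.8 to 46.0 in the 16 amygdalae (median 32.7) and 51.2 to 109.6 in the 16 hippocampi (median 83.4), with no overlap, and its log2 difference was 1.39 (SE 0.09, DESeq2 adjusted p = 3.89e-54). The lowest hippocampal value was that of *Kdm5c*-KO replicate 1, the library low in principal neuron markers. *Cacng4* was lower in the hippocampus, with 6.27 to 12.1 (median 7.77) against 19.1 to 31.3 (median 23.6) and no overlap (log2 -1.49, SE 0.07, DESeq2 adjusted p = 1.88e-92). Its highest hippocampal value was again *Kdm5c*-KO replicate 1. *Cacng5* was lower as well, with 1.15 to 4.98 (median 2.85) against 4.72 to 9.02 (median 7.72), overlapping at the edges (log2 -1.26, SE 0.12, DESeq2 adjusted p = 2.27e-23). These 3 also passed in the 8 WT libraries alone, with log2 differences of 1.19 (SE 0.18) for *Cacng8*, -1.57 (SE 0.14) for *Cacng4* and -1.48 (SE 0.29) for *Cacng5*.

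*Cacng7* and *Cacng3* differed little between the regions. *Cacng7* had a log2 difference of -0.26 (SE 0.06, DESeq2 adjusted p = 0.000284) and *Cacng3* of -0.19 (SE 0.08, DESeq2 adjusted p = 0.0551), and neither passed in the WT libraries alone (DESeq2 adjusted p = 0.859 and 0.886). The *Cacng3* call was lost without mouse WT 1, DM 1, DM 4 or *Kdm5c*-KO 2 (DESeq2 adjusted p between 0.103 and 0.132). *Cacng2* had nearly the same level per kb in both regions, 11.4 to 17.7 (amygdala) and 11.4 to 16.2 (hippocampus), with a log2 difference of -0.01 (SE 0.05, 95% interval -0.10 to 0.09, DESeq2 adjusted p = 0.939). Scaling by the ERCC spike-ins moved the median log2 difference of all genes to 0.64, and the differences of *Cacng2*, *Cacng3* and *Cacng7* were then positive (0.65, 0.54 and 0.41), near that median. Under that scaling *Cacng2* and *Cacng3* passed the test as higher in the hippocampus (DESeq2 adjusted p = 0.0137 and 0.0581), and *Cacng7* (0.170) and *Cacng1* (0.269) did not pass. Those of *Cacng4* (-0.82) and *Cacng5* (-0.77) stayed negative and that of *Cacng8* (2.01) stayed positive. *Cacng1* passed the test as lower in the hippocampus (DESeq2 adjusted p = 0.0381), on 0 to 10 counts per library, and no longer passed without mouse *Kmt2a*-HET 3 (DESeq2 adjusted p = 0.113). *Cacng6* had a log2 difference of 0.25 (SE 0.54) between the WT hippocampi and WT amygdalae, given as a description.

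Many partners of the family at the synapse and in the calcium channel differed between the regions. Of 41 genes in 6 lists, 27 were higher and 9 lower in the hippocampus (87.8%, beside 45.2% of all genes). Neuronal marker lists moved with the regions too, and their part in these counts was not tested: all 5 general neuronal markers passed as higher (median log2 difference 0.59), as did 5 of 6 hippocampal principal neuron markers (2.13), while 4 of 6 inhibitory neuron markers (-0.65) and all 6 striatal ones (-3.88) passed as lower. For the AMPA receptor subunits it was 3 higher and 1 lower of 4 (median log2 difference 0.84, beside -0.01 over all genes), with *Gria1* at 1.19 (SE 0.08). For the other AMPA receptor auxiliary and assembly proteins it was 9 higher and 3 lower of 13 (median 0.69), led by *Shisa6* (3.15, SE 0.13), an auxiliary subunit that keeps AMPA receptors at the synapse. The scaffolds that bind TARPs gave 5 higher and 1 lower of 6 (median 0.41), with *Camk2a*, a kinase that phosphorylates TARPs, at 1.23 (SE 0.07). Of the pore-forming alpha1 subunits of voltage-gated calcium channels 5 were higher and 2 lower of 10 (median 0.29). Of the beta subunits 3 of 4 were higher (median 0.31). The alpha2delta subunits split into 2 higher and 2 lower (median -0.26), with *Cacna2d2* at -2.41 (SE 0.13).

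Between genotypes 1 gene of the 41 passed the test, in mutant against intact hippocampi (2.44%, beside 2.39% of all genes) and in both *Kdm5c* mutants against WT (1.01% and 0.875% of all genes). The share is near that of all genes, and nothing is read from it about the lists. *Cacna2d4*, which encodes the alpha2delta-4 subunit known from the retina, had hippocampal counts of 30.4, 37.4, 23.8 and 39.9 in WT and 27.4, 38.5, 39.1 and 30.7 in *Kmt2a*-HET mice. The counts were 77.1, 65.8, 51.4 and 59.6 in *Kdm5c*-KO mice and 60.9, 52.7, 83.2 and 55.3 in DM mice. The 8 mutant values lay above the 8 intact ones with no overlap (log2 fold change 0.91, SE 0.18, DESeq2 adjusted p = 6.3e-05). Its log2 fold change was 0.94 (SE 0.25, DESeq2 adjusted p = 0.0316) in *Kdm5c*-KO and 0.93 (SE 0.25, DESeq2 adjusted p = 0.0341) in DM against the same WT mice. These comparisons of 4 mice did not pass in edgeR (adjusted p = 0.134 and 0.140), with ERCC scaling, or without WT replicate 1 or 3, *Kdm5c*-KO replicate 1 or DM replicate 3. Without 1 library the log2 fold change was 0.81 to 1.05 for *Kdm5c*-KO and 0.77 to 1.04 for DM, and with ERCC scaling it was 0.99 and 0.36, where the medians of all genes were 0.19 and -0.51. In the amygdala *Cacna2d4* had 51.4 to 101.3 counts in the intact and 73.2 to 146.2 in the mutant mice (log2 fold change 0.55, SE 0.18, DESeq2 adjusted p = 0.122). The medians of the 6 lists in mutant against intact mice lay between -0.03 and 0.09 in both regions, beside -0.01 for all genes.

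The genes whose values over the 16 hippocampal libraries were most like those of *Cacng6* were *Zmynd8*, a reader of histone marks (Pearson r = 0.965 on log2 of the normalised count plus 1, across 16336 genes), *Klk10*, a secreted serine protease (0.947), *Tnxb*, an extracellular matrix tenascin (0.944), *Ddo*, which oxidises D-aspartate (0.936), and *Dnah1*, an axonemal dynein heavy chain (0.931). All 5 were higher in the mutant hippocampi, where the mean normalised count of *Zmynd8* was 4164 against 2789 in the intact ones and that of *Klk10* 345 against 38.7. The libraries share their genotype groups, so each r includes the split between mutant and intact mice, and Spearman's rank correlation shared 3 of the 5 names. Among the members *Cacng3* had r = -0.661, *Cacng2* -0.447, *Cacng7* -0.433, *Cacng4* 0.0334, *Cacng8* 0.0880 and *Cacng5* 0.426 with *Cacng6* in the hippocampus. Over the 16 amygdalae r was 0.397 for *Cacng3*, -0.699 for *Cacng2*, 0.00262 for *Cacng7*, -0.637 for *Cacng4*, 0.383 for *Cacng8* and -0.227 for *Cacng5*. The sign for *Cacng3*, *Cacng4*, *Cacng5* and *Cacng7* was other than in the hippocampus. The change for *Cacng4* rested on 0.0334 in the hippocampus and that for *Cacng7* on 0.00262 in the amygdala. In the amygdala the 5 genes most like *Cacng6* over 16 libraries (of 16662 genes) were others, *Sla* (0.880), *Tfr2* (0.880), *Myl4* (0.871), *Arhgap15* (0.870) and *2700081O15Rik* (0.843).

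Promoter windows of 300 bases around the RefSeq start sites (GRCm38.p6) were found for 6 of the 8 members, 7 windows in all. They were searched on both strands for CACGTG, the E-box letters bound by MYC, MAX and related factors, and for TCCCGC, letters of the E2F6 motif. CACGTG was in 0 of the 7 windows, beside 7.15% of 32851 windows over all genes. TCCCGC was in 1, that of *Cacng7*, beside 19.98% over all genes. The *Cacng6* window held 8 CpG dinucleotides, beside a median of 7. That window (chr7:3424412-3424711) covers the start of the transcript that skips exon 3 and not the annotated start of the more abundant one, which lies upstream of it.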

How the data were processed

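Poly(A) RNA of 16 mice was measured in the amygdala and hippocampus. The authors mapped reads to mm10 with STAR (2.5.3a), kept unique reads, removed duplicates and counted with featureCounts (Subread 1.5.0), as their methods and processing notes state. The deposited gene and transcript tables hold expected counts (7.07% of gene values were not whole), and the authors' estimator is not given in the sources used here. Symbols came from GENCODE M21 by gene identifier.

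Expected counts were rounded and fitted with DESeq2 (1.42.0, R 4.3.3) over all genes of a region and its 16 libraries, by genotype (4 levels), with Benjamini-Hochberg adjusted p under 0.1 as the threshold. The regions were compared over 32 libraries with genotype as a covariate, and the region difference of the *Kdm5c* effect in a fit of 8 groups. Levels per kb used the GENCODE exon length. ERCC spike-ins (0.0503 to 0.511% of counts) entered only their own scaling. The fits were tested on simulated data. Replicates differed by more than sampling noise in all 48 pairs within groups (chi-square per gene 3.75 to 124). In 10 of 16 mice the deviations of the 2 regions correlated above 0.1 (median 0.123, between mice -0.0570), so the regions pair by mouse, and a fit with the mouse as a replicate block called the same 6 members besides *Cacng6*.

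The members, the pathway, marker and neighbour lists and the tests were chosen with earlier results of these data known. Named were all members, at most 4 called pathway genes per comparison by adjusted p, the 5 genes most like *Cacng6* per region (mean count of at least 10) and any called neighbour within 100 kb. The alternatives were edgeR (4.0.16), TMM and ERCC scaling, a filter (10 counts in 4 libraries), an adjusted p under 0.05, a replicate block, a term for replicate 1, the compared groups alone, Spearman's correlation and leaving out each library. Counting intervals and the floor of 3 counts cover counting error only, and p-values within a region measure the spread between mice. Those of the main fits over 32 libraries measure the spread between libraries, since these fits held no term for the mouse.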

Additional observations from a re-analysis of the deposited data

Results flagged for a closer look

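Of 64 groups of 4 libraries (8 members, 4 genotypes and 2 regions), 2 held a library whose gap to the nearest of the others exceeded Dixon's 95% limit, set as a share of the group's range, where chance gives about 1 in 20. *Cacng2* in *Kdm5c*-KO hippocampus was lowest in replicate 1, at 1385.4 normalised counts against 1698.6 to 1721.2 in the other 3. *Cacng3* in WT amygdala was highest in replicate 1, at 2569.5 against 1241.8 to 1448.7. Both are among the libraries that stood apart by their tissue markers, and the part of those markers in the values was not tested.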

How the results depend on the processing

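The number of members called besides *Cacng6* was 0 in every comparison of genotypes and stayed 0 under edgeR, TMM and ERCC scaling, the low-count filter, the adjusted p under 0.05, the term for replicate 1 and the replicate block. Leaving out 1 library gave 0 to 1 for *Kdm5c*-KO and DM against WT and mutant against intact mice in the amygdala, and 0 to 1 for *Kdm5c*-KO against WT and mutant against intact mice in the hippocampus. Fitting only the groups compared gave 1 for DM against WT in the hippocampus (*Cacng3*, DESeq2 adjusted p = 0.0697). For hippocampus against amygdala the count of 7 includes *Cacng6*, whose values chose the family, and it was 6 to 7 without 1 mouse and 3 in the 8 WT libraries alone, a fit with fewer samples. Besides *Cacng6*, 6 were called, 5 to 6 without 1 mouse and 5 with edgeR or the low-count filter, which lost *Cacng1*, with an adjusted p under 0.05, which lost *Cacng3*, or with ERCC scaling, which lost *Cacng1* and *Cacng7* and gained *Cacng2*. ERCC scaling turned the log2 region differences of *Cacng2*, *Cacng3* and *Cacng7* from negative to 0.65, 0.54 and 0.41, with the median of all genes at 0.64. Spearman's correlation named 3 of the 5 genes most like *Cacng6* in the hippocampus.

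Whether mice of the same replicate number pair across genotypes could not be settled from these values. Of the same-numbered pairs 9 of 24 correlated above 0.1 in each region. Of the differently numbered pairs 13 of 72 (amygdala) and 19 of 72 (hippocampus) did, and 8 of 16 amygdalar and 6 of 16 hippocampal libraries correlated best with their own number, a hint from the data and not from the design. The replicate block raised the genes called in mutant against intact mice from 336 to 503 (amygdala) and 492 to 579 (hippocampus), and called 0 of the other 7 members. For *Kdm5c*-KO against WT the block gave 507 (from 144) and 506 (from 196) genes, for DM 601 (from 208) and 480 (from 170), and for *Kmt2a*-HET 325 (from 3) and 249 (from 0). ERCC scaling gave 43 and 24 genes in mutant against intact mice and edgeR 222 and 237, and without 1 library 259 to 616 and 340 to 676. Between the regions 11114 genes were called, 3422 in WT alone. The cause of these changes was not tested. With 4 mice per group and 19215503 to 27798980 counts per library, depth limits *Cacng1* and the *Cacng6* transcript shares of intact mice.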
